A study of Mus musculus with 2 samples.

Results

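Protein-folding genes were compared between 2 one-colour Agilent arrays of mouse spleen, 1 labelled Loxl3 knockout (Loxl3-/-, KO here) and 1 wild type (Loxl3+/+, WT here). The set holds 46 genes listed by their known function and matched to probes by transcript accession: 37 of the endoplasmic reticulum (ER) and its stress response, 6 cytosolic chaperones and 3 mitochondrial ones. All 46 had a probe, out of 20655 genes named on the array, and 45 were well above background on both arrays, among 13716 genes measured. Hyou1, an ER chaperone of the large Hsp70 class, was the exception, with signals of 28.7 in KO spleen, against 14.0 in WT spleen, both not well above background. Both samples were total RNA of fresh spleen from untreated, healthy male mice. Neither age, strain nor the design of the Loxl3 allele is given in the sources used here, nor is the number of animals behind each array.

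Proteins bound for the cell surface or for secretion enter the ER through the Sec61 channel, lose their signal peptide and are folded by the Hsp70-type chaperone BiP, the Hsp90-type chaperone Grp94, the lectin chaperones and the disulfide isomerases. Chains that fail to fold are sent back to the cytosol for degradation. Load on this system is sensed by the unfolded protein response, in which Ire1, Atf6 and Perk raise transcription of the same machinery. In the spleen the system is best known from plasma cells, which make antibody. Cytosolic and mitochondrial chaperones answer to other regulators, heat shock factor among them.

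With 1 array per group there is no replicate check, and no p-value was computed. The error after ± comes from the scanner software's own estimate for each spot, propagated to the difference, and holds no variation between animals. For strong signals it is almost constant at 0.20. Signals are background-corrected intensities, and a log2 difference is KO minus WT after each was scaled on its 75th percentile, a signal of 1400 and 974 in that order. The Loxl3 probe itself gave 125 in KO spleen, against 117 in WT spleen, a difference of −0.43 ± 0.29, so it is no firm check of the labels.

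Folding genes as a whole differed little between the arrays. Of the 45 measured, 1 lay 2-fold or more above its WT level and 0 lay as far below, counts of 2.22% and 0 that stand beside 2.57% of all genes in the upward and 2.26% in the downward direction. The 21 members above 0 made up 46.7%, against 40.8% of all genes, and the members' median of −0.03 stood beside −0.09 for all genes. Differences of more than 2 software errors were seen for 17 members, 7 upward (15.6%, beside 10.2% of all genes) and 10 downward (22.2%, beside 18%). The 10 include Creld2 and Mzb1, whose errors are smaller because each was printed 10 times, and their signs and those of Sec61b and Hspa8 turned under other scalings. The median was 0.04 for the 36 ER genes, −0.22 for the 6 cytosolic genes and −0.73 for the 3 mitochondrial genes. Only the mitochondrial median kept its sign under every alternative. The ER and cytosolic medians were 0.13 and 0.17 with quantile normalization and 0.15 and 0.14 with the loess trend removed. The ER median was −0.06 with scaling on the median. Set against the median of all genes, however, the ER median was higher in every setting, by 0.11 (normexp) to 0.17 (no filter on dim probes). Scaling each array by 1 value cannot change this gap, so it was 0.13 in each such setting. The deposited values nearly repeat quantile normalization, with 0.16 in both, so not all settings are separate checks. The cytosolic median fell on both sides of the median of all genes.

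**Figure D1:**
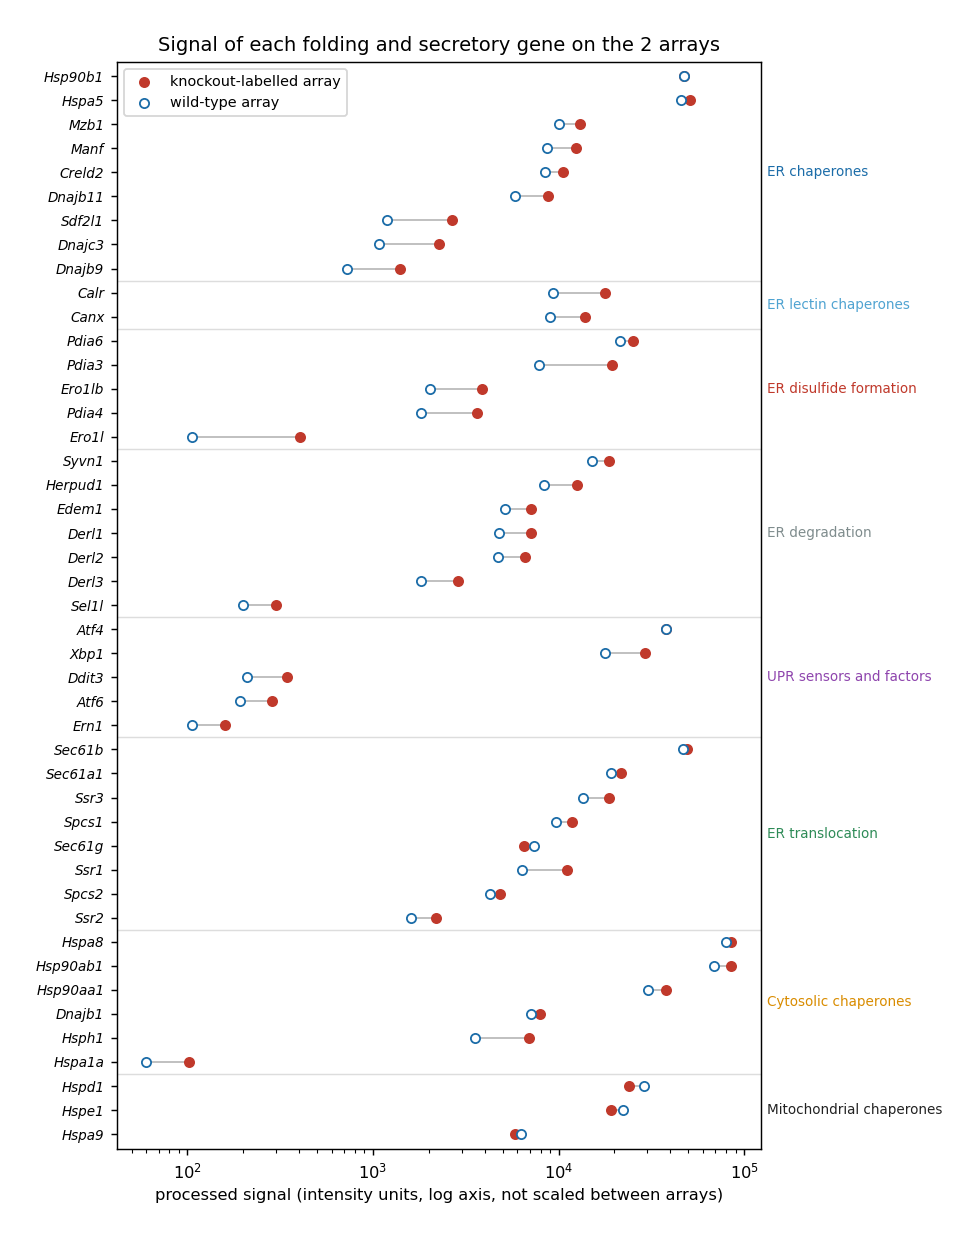
Processed signal of each of the 45 measured genes (log axis, intensity units, not scaled between arrays), grouped by role, with KO filled and WT open. Unscaled signals were higher in KO spleen for 41 genes, and Sec61g, Hspd1, Hspe1 and Hspa9 were the 4 that were lower.

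The mitochondrial chaperones were lower in KO spleen in every probe. Hspd1, encoding Hsp60, the barrel-shaped chaperonin of the matrix, gave 23945 in KO spleen, against 28830 in WT spleen. Hspe1, encoding Hsp10, the lid of that barrel, gave 19254 in KO spleen, against 22211 in WT spleen. Hspa9, encoding mortalin, the matrix Hsp70 that pulls in imported chains, gave 5834 in KO spleen, against 6270 in WT spleen. All 3 signals were lower even before scaling, on the KO array, whose 75th percentile was the higher one. The scaled differences were −0.79 ± 0.20 for Hspd1, −0.73 ± 0.20 for Hspe1 and −0.63 ± 0.20 for Hspa9, or 0.578, 0.603 and 0.648 times the wild-type signal. The other probes of Hspe1 gave −0.64 and −0.62. These genes lay at percentiles 4.52, 5.72 and 8.01 of all differences, counted from the lowest, and all 3 stayed below 0 under each of the 9 other ways of processing tried.

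Hspd1 and Hspe1 lie head to head on chromosome 1 and are known to share a promoter, so their common behaviour was set beside its sequence. In RefSeq's GRCm38.p6 annotation the promoter windows (250 bases before to 50 after a start) of Hspe1 and of an Hspd1 start 216 bases away overlap by 285 bases. Another annotated Hspd1 start lies 95 bases from that of Hspe1, on its other side. The stretch printed here is chr1:55088008-55088107 on the plus strand, bases −140 to −41 from the Hspe1 start. Its capitals mark heat shock elements, the inverted GAA repeats bound by heat shock factor.
Hspe1: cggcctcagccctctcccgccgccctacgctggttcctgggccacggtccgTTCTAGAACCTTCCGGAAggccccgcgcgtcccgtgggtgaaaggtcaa
The search used GAANNTTCNNGAA and its reverse complement TTCNNGAANNTTC on both strands, and here the matches overlap each other in 1 run of bases. Such a match is present in 0.603% of 32851 promoter windows in the table. Among the 35 members with a window, Hspd1, Hspe1 and the cytosolic Hsph1 had one. The matches of Hspd1 and Hspe1 are the same bases. Hspa9, lower as well at −0.63, was not among the members found with a match. Hsph1 differed the other way from the mitochondrial pair, as its values show.

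Other genes of mitochondrial folding, protein import and quality control were spread around the level of all genes. Of 20 measured, 14 were below 0 and 6 above, where 40.8% of all genes were above 0. These 20 had a median of −0.23, and none passed 2-fold. With the trend on signal removed by loess the median was −0.04, where that of the 3 chaperones was −0.43. Dnajc19, an import motor subunit, was the lowest at −0.97 ± 0.20 and −0.59 with its other probe. The lowest also included Hscb, a co-chaperone of iron-sulphur cluster assembly, at −0.50. The highest were Ppif, the cyclophilin of the permeability pore, at 0.97 ± 0.31, and the inner membrane protease gene Yme1l1 at 0.79. Proliferation genes were lower on the same array as the mitochondrial chaperones. Of the 15 measured 14 were below 0, with a median of −0.50, a lowest value of −1.02 for Aurka. The exception was Aurkb, at 0.58 ± 0.54 and not well above background in WT spleen. As scaled here it was at least 1.11-fold higher in KO spleen, a bound set by the weakest signal well above background in WT spleen. The bound takes no account of the software error, and the sign held in 5 of 6 other scalings. Granulocyte precursor markers were lower too. All 11 were below 0, 10 of them past 2-fold, at a median of −2.41, between Camp at −2.64 and Prtn3 at −0.80, and their summed signal was 18355 in KO spleen, against 68052 in WT spleen. The part of these cells in the mitochondrial values was not tested. In RNA of whole tissue, fewer cells of a type and less RNA per cell cannot be told apart.

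The members for disulfide bond formation had the highest median of all roles. Ero1l (current symbol Ero1a), the oxidase that recharges the isomerases and is known to be induced by low oxygen, was the only member past 2-fold. Its single probe gave 403 in KO spleen, against 106 in WT spleen, a difference of 1.40 ± 0.26 or 2.63 times. This lay at percentile 98.8 of all differences. The signal is weak, and with normexp background correction the difference was 0.88, under 2-fold. Normexp was run with an offset of 50 added to every signal, which narrows the differences of weak ones. The members next below the threshold were Hspd1, given above, and Pdia3.

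Pdia3, the isomerase that works with the lectin chaperones and on MHC class I, gave 19528 in KO spleen, against 7893 in WT spleen, a difference of 0.78 ± 0.20. With quantile normalization it was 1.05, past 2-fold. Pdia4, another isomerase, gave 3630 in KO spleen, against 1812 in WT spleen (0.48 ± 0.20). Ero1lb (current symbol Ero1b), the oxidase enriched in pancreas, gave 3876 in KO spleen, against 2036 in WT spleen (0.41 ± 0.20). These 4 genes were above 0 under all 6 other scalings. Pdia6 was unsettled, with −0.29 ± 0.20 from the probe of higher signal and 0.37 from the other. The 5 genes had a median of 0.48. Further genes of the isomerase family lay on both sides of 0. They included P4hb at −0.32, Pdia5 at −0.64, Erp44 at −0.25 and Txndc5 at −0.02. Tmx1 and Tmx3 were at 0.20 and 0.23, and Pdia2, described below, at 3.43.

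Among the ER chaperones listed as members, 3 co-chaperones were higher in KO spleen, and the abundant Hspa5 and Hsp90b1 were not as scaled here. Sdf2l1, a partner of the BiP cycle, gave 2672 in KO spleen, against 1185 in WT spleen (0.65 ± 0.20). Dnajc3, a J-domain co-chaperone that also restrains Perk, gave 2260 in KO spleen, against 1084 in WT spleen (0.54 ± 0.21). Dnajb9, the J-domain protein that represses Ire1, gave 1405 in KO spleen, against 721 in WT spleen (0.44 ± 0.21). All 3 were more than 2 software errors above 0 and kept their sign under the 6 other scalings. Of related genes outside the members, Sdf2 was at −0.49, Dnajc1 at −0.10 and Dnajc10 at −0.83 (other probe 0.29).

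Hspa5, encoding BiP, gave 51083 in KO spleen, against 45848 in WT spleen. Hsp90b1, encoding Grp94, which folds integrins and Toll-like receptors, gave 47462 in KO spleen, against 47309 in WT spleen. Their signals were thus close on the 2 arrays, and the scaled differences were −0.37 ± 0.20 and −0.52 ± 0.20. The sign of Hspa5 turned under 3 of 6 other scalings, to 0.10 with quantile normalization, whereas Hsp90b1 stayed below 0, at −0.04 there. Dnajb11, a BiP co-chaperone, was at 0.07 and Manf, a secreted ER stress protein, at −0.01.

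Creld2, an ER stress-induced isomerase-like protein, and Mzb1, a Grp94 co-chaperone of B cells and plasma cells, were each printed 10 times on the array, which allows the technical spread to be seen directly. The 10 Creld2 spots ranged from 9357 through a median of 10522 to 12008 in KO spleen, against 7495, 8442 and 9694 in WT spleen. The mean log2 difference was −0.19, with an SD of 0.12 over spots, and 9 of 10 spot pairs were below 0. The Mzb1 spots ranged from 10789 through 12893 to 14662 in KO spleen, against 8510, 10050 and 11712 in WT spleen, with a mean difference of −0.16 and an SD of 0.14. Spots overlapped between the arrays for both genes. Both signs turned under 3 of 6 other scalings (Creld2 to 0.05 and Mzb1 to 0.10 with the loess trend removed), so neither gene has a settled direction.

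The lectin chaperones hold glycoproteins until they fold. Calr, encoding calreticulin, gave 17772 in KO spleen, against 9361 in WT spleen (0.40 ± 0.20), and was above 0 under all 6 other scalings. Canx, encoding the membrane-bound calnexin, gave 13935 in KO spleen, against 8999 in WT spleen (0.11 ± 0.20), and turned to −0.19 with normexp.

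**Figure D2:**
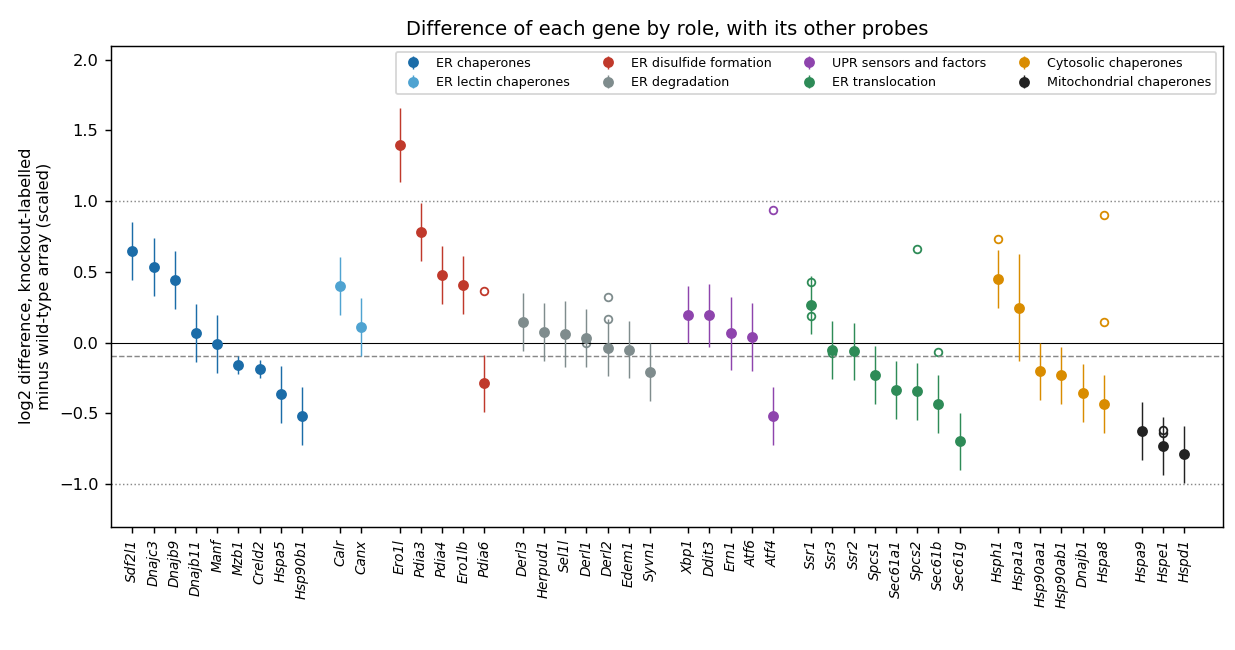
Log2 difference (KO minus WT, scaled) of each gene, grouped by role, with the software error as a bar and the gene's other probes above background as open circles. The dashed line is the median of all genes at −0.09 and the dotted lines mark 2-fold, which Ero1l passed at 1.40, while the mitochondrial genes lay between −0.79 and −0.63.

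Genes of ER-associated degradation were close to 0. The 7 members ranged from −0.21 to 0.15 and none differed by more than 2 software errors. Syvn1, the ubiquitin ligase of this route, gave 18728 in KO spleen, against 15054 in WT spleen (−0.21). Its partner Sel1l gave 301 in KO spleen, against 200 in WT spleen (0.06). The membrane proteins Derl1, Derl2 and Derl3 were at 0.03, −0.03 and 0.15, the ER stress-induced scaffold gene Herpud1 at 0.08, and Edem1, a mannosidase-like factor, at −0.05. Of all genes 40.8% were above 0, with a median of −0.09. Of 20 further genes of the route, 12 were below 0 and 8 above, with a median of −0.12. Vcp, the ATPase that extracts the substrates, was the lowest at −0.74 ± 0.20, from 9054 in KO spleen, against 10513 in WT spleen. Next was Ube2g2, a ubiquitin-conjugating enzyme, at −0.46 and 0.39 with its other probe. The highest were March6 (current symbol Marchf6), an ER ubiquitin ligase, at 0.71 ± 0.21 and Edem2 at 0.55.

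The sensors and transcription factors of the unfolded protein response did not move together. Xbp1, whose mRNA is spliced by Ire1, gave 29251 in KO spleen, against 17746 in WT spleen (0.20 ± 0.20). Where its probe lies relative to the spliced segment was not examined, so whether the value covers both forms is not known. Ern1, encoding Ire1, gave 160 in KO spleen, against 106 in WT spleen (0.07 ± 0.26). Atf6, a membrane-bound factor cut on activation, gave 284 in KO spleen, against 193 in WT spleen (0.04 ± 0.24). The signs of Ern1 and Atf6 held in only 1 of 6 other scalings each. Ddit3, encoding the pro-apoptotic factor Chop, gave 344 in KO spleen, against 209 in WT spleen (0.19 ± 0.22).

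Atf4, controlled mostly at translation, had probes that disagreed. One gave 37869 in KO spleen, against 37726 in WT spleen (−0.52 ± 0.20), the other 423 in KO spleen, against 154 in WT spleen (0.94 ± 0.24), so no direction can be given. Of 19 further genes of the response measured, 10 were above 0 and 9 below, with a median of 0.05. Creb3l1, an Atf6-like factor of secretory cells, was 2-fold higher at 1.08 ± 0.21, from 901 in KO spleen, against 296 in WT spleen. Ddit4, a stress-induced mTOR inhibitor, was 2-fold lower at −1.07 ± 0.20, from 26175 in KO spleen, against 38337 in WT spleen. The next were Atf6b at 0.58 and the tRNA synthetase gene Nars at −0.49.

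Translocation genes were mostly on the lower side, 7 of 8 below 0 with a median of −0.28, beside −0.09 for all genes. Sec61g, the small gamma subunit of the channel, gave 6504 in KO spleen, against 7349 in WT spleen (−0.70 ± 0.20). It was the only ER member with a lower unscaled signal there, and it kept its sign under all 6 other scalings. The pore subunit gene Sec61a1 gave 21837 in KO spleen, against 19168 in WT spleen (−0.33 ± 0.20). The tail-anchored subunit gene Sec61b gave 49448 in KO spleen, against 46558 in WT spleen (−0.44 ± 0.20), and its other probe −0.07. The direction of the group was not kept, with a median of 0.01 and 4 of 8 above 0 once the loess trend on signal was removed. Of the translocon-associated proteins, Ssr1 was at 0.27 ± 0.20, with other probes at 0.19 and 0.43. Ssr2 was at −0.06 and Ssr3 at −0.05. The signal peptidase subunit gene Spcs1 was at −0.23. Spcs2 was at −0.35 ± 0.20 with 1 probe and 0.66 ± 0.24 with the other. Further translocation and glycosylation genes had a median of −0.16. Of the 25 measured, 17 were below 0 and 8 above, where 40.8% of all genes were above 0. Srp19 and Srp14, both of the signal recognition particle, were the lowest at −0.57 and −0.43. Stt3a, the catalytic subunit of oligosaccharyltransferase, was the highest at 0.61, followed by the channel partner gene Sec63 at 0.50.

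Further along the route, none of the 25 other ER folding genes or of the 28 ER-to-Golgi transport genes passed 2-fold. Of all genes 40.8% were above 0, with a median of −0.09. Among the folding genes 18 were below 0 and 7 above, with a median of −0.22. Kdelr1, the receptor that returns ER proteins from the Golgi, was the highest at 0.97 ± 0.21 (other probe 0.48), from 1545 in KO spleen, against 549 in WT spleen. Kdelr3, of the same family, was at 0.43. Dnajc10, a reductase with a J domain, was the lowest at −0.83 with 0.29 from its other probe, and the isomerase gene Pdia5 was at −0.64. Transport genes had a median of −0.13, with 18 of 28 below 0 and 10 above. The small GTPase gene Arf4 was at 0.81 and the coat protein gene Copg1 at 0.75 (other probes 0.45 and −0.07). The exchange factor gene Preb was at −0.51 (other probe 0.77) and the cargo receptor gene Surf4 at −0.44.

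Cytosolic chaperones gave values on both sides of 0. Hsph1, the Hsp110 nucleotide exchange factor, gave 6970 in KO spleen, against 3554 in WT spleen (0.45 ± 0.20), its other probe was at 0.73, and it was above 0 under all 6 other scalings. Dnajb1, the Hsp40 of the heat shock response, gave 7985 in KO spleen, against 7118 in WT spleen (−0.36 ± 0.20), and stayed below 0 under all 6. These partners of Hsp70 lay on opposite sides of 0. Hspa1a, the inducible Hsp70, gave 102 in KO spleen, against 60.0 in WT spleen (0.25 ± 0.38). It is nearly identical in sequence to Hspa1b, for which no probe was matched, so the probe may report either gene.

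The Hsp90 genes Hsp90aa1, the inducible form, and Hsp90ab1, the constitutive one, were at −0.20 and −0.23. They turned to 0.17 and 0.24 with quantile normalization. Hspa8, the constitutive Hsp70, had 3 probes that gave −0.43 ± 0.20, 0.14 ± 0.20 and 0.90 ± 0.20, so no direction can be given. The median of the 6 genes was −0.22 as scaled here and 0.17 with quantile normalization. Of 35 further cytosolic folding genes, 21 were below 0 and 14 above, where 40.8% of all genes were above 0. These 35 had a median of −0.09, equal to that of all genes. Stip1, which links the Hsp70 and Hsp90 machines, was at 0.80 and the testis-enriched Hspa2 at 0.65. The co-chaperone gene Dnajc7 was at −0.96 and the chaperonin subunit gene Cct7 at −0.68.

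**Figure D3:**
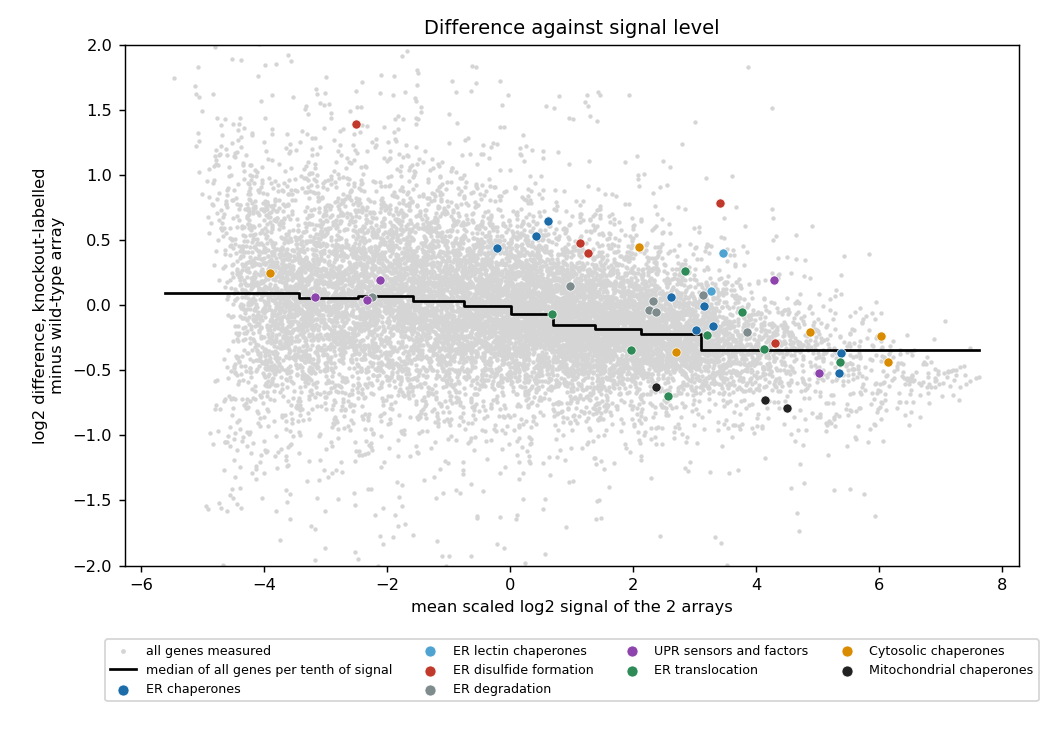
Log2 difference (KO minus WT) against the mean scaled log2 signal of the arrays, for all 13716 genes measured (grey) and the 45 members (coloured by role), with the median of all genes in 10 equal bins of signal as a black line; 130 genes lie beyond the range of −2 to 2. The line runs from 0.10 in the lowest bin of signal to −0.34 in the highest, and the mitochondrial genes lie below it while Pdia3 and Calr lie above.

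Part of the spread between members followed the signal of their probes. When all genes were divided into 10 equal bins by signal, the median difference was 0.10 in the lowest bin and −0.34 in the highest. Members are mostly strong signals, 21 in the highest bin and 9 in the next. Across the 45 members the difference and the mean log2 signal correlated at −0.55 (Pearson) and −0.60 (Spearman), and across all genes at −0.25 and −0.32. These are descriptions over genes that share the same 2 arrays. Hspa5 at −0.37, Sec61a1 at −0.33 and Sec61b at −0.44 were near the −0.34 of their bin. Hspd1 at −0.79 and Hspe1 at −0.73 were below it, and Hspa9 and Sec61g, at −0.63 and −0.70, were below the −0.22 of theirs. In the same highest bin Pdia3 at 0.78, Calr at 0.40 and Xbp1 at 0.20 were above it. Sdf2l1 at 0.65 and Dnajc3 at 0.54 stood against −0.06 for their bin.

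Probes of the same gene showed the same slope. For 11 members with several probes above background on both arrays, the probe of highest signal gave a lower difference than the probe of lowest signal in 9, or 81.8%. Among all 2886 such genes the share was 70.1%. The sign differed between these probes for 6 of the 11 members (Pdia6, Derl1, Derl2, Atf4, Spcs2 and Hspa8), and for 44.4% of all such genes. For Hspe1 all 3 probes lay within −0.73 to −0.62.

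**Figure D4:**
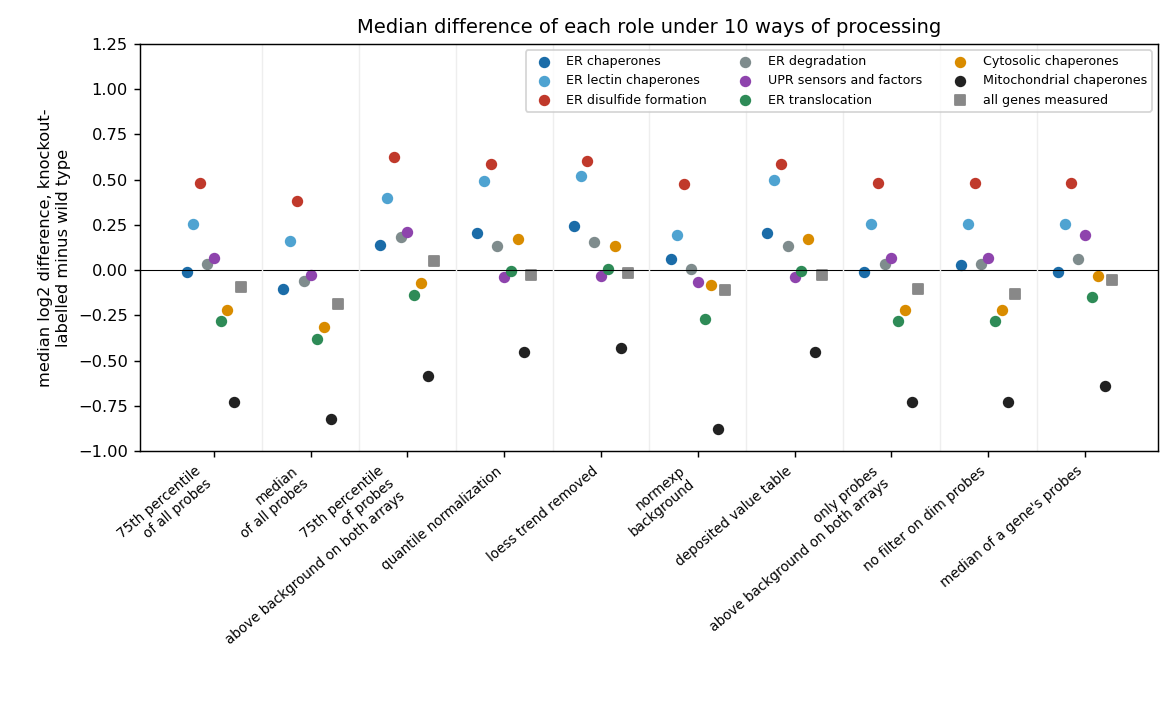
Median log2 difference (KO minus WT) of each role under the reported processing, at the left, and 9 alternatives, with all genes measured as grey squares. Disulfide formation genes stayed between 0.38 and 0.62 and mitochondrial chaperones between −0.88 and −0.43, while the medians of ER chaperones, degradation, unfolded protein response, translocation and cytosolic genes took both signs.

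Many ER genes are known to carry the ER stress response element, bound by Atf6 together with the CCAAT factor NF-Y, and it served to divide the ER members by a feature of sequence. The letters searched were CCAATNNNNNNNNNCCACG, and the variant ATTGGNCCACG, on both strands. The longer element was present in 10 of the 35 members with a window, or 28.6%, against 0.119% of all 32851 windows. A member counted if any of its windows held a match, so the first share is per gene and the second per window. The variant was present in 2 members, against 0.0365% of windows, and the pair together in 12 members, all of the ER. Hspa5 carries the textbook example. The stretch printed here is chr2:34771980-34772079 on the plus strand, bases −110 to −11 from the start, with the element in capitals.
Hspa5: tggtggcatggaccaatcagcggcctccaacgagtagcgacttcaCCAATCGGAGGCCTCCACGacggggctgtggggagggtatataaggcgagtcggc
The sites of 5 further members are given with 5 flanking bases on each side, each read along the strand on which the element runs forward. They are chosen to span the range of differences, from Dnajc3 at 0.54 to Hsp90b1 at −0.52. They lie at chr14:118937822-118937850 (plus), chr13:12565677-12565705 (minus), chr8:84847070-84847098 (plus), chr12:17266486-17266514 (plus) and chr10:86705633-86705661 (minus), in the order shown. Hsp90b1 holds 2 matches, and the one that runs with the gene is shown.
Dnajc3: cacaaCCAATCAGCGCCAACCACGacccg
Ero1lb: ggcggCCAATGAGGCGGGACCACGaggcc
Calr: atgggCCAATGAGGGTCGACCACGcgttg
Pdia6: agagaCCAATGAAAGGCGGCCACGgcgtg
Hsp90b1: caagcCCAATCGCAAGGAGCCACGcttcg
The shorter variant of Herpud1 lies at chr8:94386372-94386392 (plus).
Herpud1: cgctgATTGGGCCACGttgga
Members with and without the element had close medians as scaled here, and less close ones with the loess trend removed. The 12 ER members with it had a median difference of 0.07, with 7 above 0 and 5 below, between −0.52 and 0.54. The 18 with a window and no such match had a median of 0.06, with 10 above 0 and 8 below, between −0.70 and 1.40. With the loess trend removed, 11 of the 12 with the element were above 0, at a median of 0.27, and 12 of the 18 without it, at a median of 0.15. Of all genes 48.1% were above 0 under loess, at a median of −0.02. The 6 measured ER members without a window had a median of −0.04 as scaled here and 0.06 with loess. The members with the element also had the stronger signals, with a median of 13292 in KO spleen, against 8702 in WT spleen. Those without it had a median of 6563 in KO spleen, against 4935 in WT spleen. Another motif of the response, TGACGTGG, was in no member's window and in 0.676% of all windows, which says only that these letters are not there.

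Genes of acinar cells, which are rich in secretory machinery, gave much higher signals in KO spleen. Of 20 genes of pancreatic acinar cells, all 20 passed 2-fold upward in KO spleen. Their median was 3.77, between Amy2a5 at 2.39 and Reg1 at 4.83. Their signals ranged from 153 to 88243 in KO spleen and from 9.20 to 11746 in WT spleen, where Cuzd1 was not well above background, so that it was at least 2.55-fold higher in KO spleen. The summed signal was 288351 in KO spleen, against 21032 in WT spleen. Pdia2, the isomerase of acinar cells, gave 1725 in KO spleen, against 112 in WT spleen (3.43 ± 0.26, other probe 3.36). Erp27, another ER protein known from pancreas, was at 0.23 ± 0.21 and Bhlha15, a transcription factor of secretory cells, at 0.20 ± 0.21. Ero1l, Pdia3, Pdia4, Ero1lb, Sdf2l1, Dnajc3, Dnajb9 and Creb3l1 were higher on the same array as these genes. Other ER genes were not as scaled here, among them Hspa5 at −0.37, Hsp90b1 at −0.52 and Sec61g at −0.70. Of the 36 ER members measured, 19 were above 0 (52.8%, beside 40.8% of all genes) and 17 below. The part of acinar RNA in any of these values was not tested.

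Plasma cell markers had the highest median of the spleen cell lists, 0.43, and between 0.08 and 0.57 under the other scalings. All 9 were measured, 5 above 0 and 4 below, and none passed 2-fold. The 5 were Irf4 at 0.59, a transcription factor of the lineage, Tnfrsf13b at 0.48 (other probe −0.09), Cd38 at 0.47, Slamf7 at 0.44 and Sdc1 at 0.43. Sdc1 encodes the surface marker CD138. Their summed signal was 90746 in KO spleen, against 64773 in WT spleen, or 64.8 and 66.5 after scaling. The sum is mostly Igj (current symbol Jchain), the joining chain of secreted antibody, at −0.08 ± 0.20. Fcrl5, a surface receptor, was the lowest at −0.12, and Tnfrsf17 and Prdm1 were at −0.09 and −0.05. The part of plasma cells in the ER values was not tested. Defining markers of other spleen cells were present on both arrays. The 10 B cell markers had a median of 0.21, between Cr2 at −0.43 and Fcer2a at 1.13. The 10 T cell markers had a median of −0.08, between Cd3d at −0.46 and Tcf7 at 0.37. The 10 macrophage markers had a median of −0.07, between Cd5l at −0.86 and Cd163 at 0.73. The 8 erythroid markers measured had a median of −0.09, between Gata1 at −1.12 and Klf1 at 0.73. After scaling, the summed signal of B cell markers was 143 in KO spleen, against 174 in WT spleen, and that of proliferation genes 42.4 in KO spleen, against 62.2 in WT spleen.

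**Figure D5:**
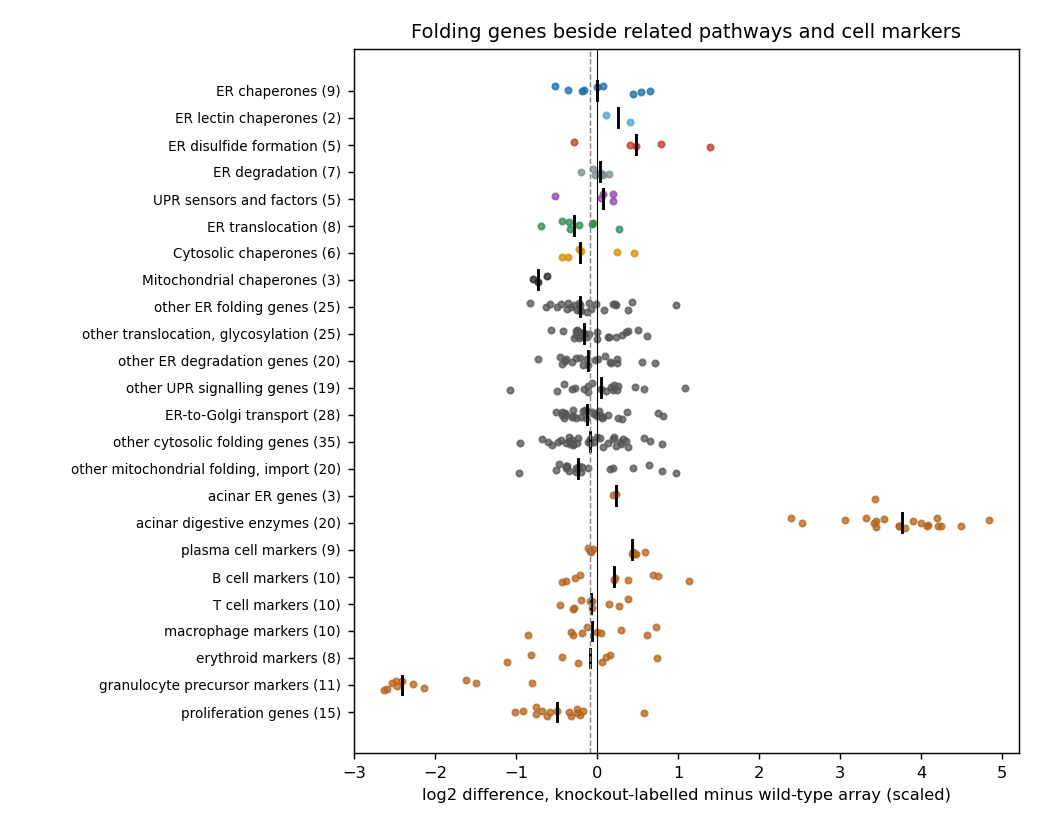
Log2 difference (KO minus WT, scaled) of every measured gene in the 8 roles, in 7 lists of related pathway genes and in lists of cell markers, with the number of genes in brackets, a black bar at each median and a dashed line at the median of all genes, −0.09. The pathway lists centre between −0.23 and 0.05, acinar genes at 3.77 and granulocyte precursor markers at −2.41.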

How the data were processed

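Spleen RNA of 1 knockout-labelled and 1 wild-type sample was measured, grouped by the genotype in the labels. Spot intensity on a linear scale, as deposited by the authors, was read with Agilent Feature Extraction 11.0.1.1, protocol GE1_1100_Jul11, per the file headers, which place probes on mm9. Both arrays lay on 1 slide in 1 scan, per the file headers. The value table that the authors deposited holds log2 values with equal medians of 6.71, and its differences correlated at 0.9996 with quantile-normalized processed signals; its steps are not given in the sources used here.

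Control spots and outlier spots (132 and 110) were left out, and no spot was saturated. Log2 processed signals of a probe's spots were averaged (39420 probes) and scaled on the 75th percentile. Accessions were matched without versions to RefSeq of GRCm38.p6 (27226 probes named, 12194 not); 2 members carry older symbols on the list. A gene is its probe of highest signal among those well above background on either array. Sequences are RefSeq's, build GRCm38.p6. With 0 residual degrees of freedom no test was possible, and the number of arrays limits the precision. For 269 probes printed 10 times the SD of the difference over spots had a median of 0.113. The steps were run on simulated data with 200 changed genes of 13227, and each of 4 change sizes was called in 100% of its 50 genes. These changes, log2 1.5 and 2 in either direction, all lay beyond the 2-fold threshold, and no trend on signal was simulated. The run thus checks the calculation only and cannot speak for smaller differences such as those of most members. Alternatives in scaling, background correction (normexp, limma 3.58.1, on median spot signals, since no mean signal column is in the files), filter, probe and source of values were run. The normexp offset was 50. The members and lists were chosen with earlier results of these data known. Every member is named, and of each pathway list the genes at 2-fold with the 2 highest and 2 lowest. Further ER folding genes are named beside the disulfide genes and the co-chaperones, chosen after their values were seen. Of the lists of cell markers and proliferation genes the highest and lowest are named, and of plasma cell markers all 9.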

Additional observations from a re-analysis of the deposited data

How the results depend on the processing

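Leaving out all filters on dim probes, or requiring signal above background on both arrays, changed the sign of 0 of 45 members. Scaling on the median changed 6 signs, scaling on probes above background on both arrays 5, normexp 6, the use of probe medians 5, and quantile normalization, loess and the deposited values 17 each. With quantile normalization, loess or the deposited values, 2 members were at least 2-fold higher, Pdia3 being the second, and with normexp 0 were higher and 1, Hspd1, was lower at −1.10. The ER median was 0.18 with scaling on probes above background on both arrays and 0.15 with loess, and its sign turned with median scaling (−0.057) and normexp (−0.0018). The cytosolic median was −0.072 with scaling on probes above background on both arrays, 0.17 with quantile normalization, 0.14 with loess, −0.082 with normexp, 0.17 with the deposited table and −0.030 when a gene was its probes' median. The mitochondrial median was −0.58, −0.45, −0.43, −0.88 and −0.45 under the first 5 of those settings. The cause was not tested. Scaling on probes above background on both arrays moved the median of all genes by 0.15. Relative to it the mitochondrial median was −0.64 and the ER median 0.13 in both scalings. These gaps cannot change where each array is shifted by 1 value. Among all genes at 2-fold, the share of higher ones was 41.2% with median scaling, 70.9% with scaling on probes above background on both arrays and 44.8% with normexp, where the reported processing gave 352 higher and 310 lower genes. Normexp, whose offset of 50 narrows differences of weak signals, left 151 higher and 186 lower, and no filter gave 613 and 699. Without the filter Hyou1 also entered. No paired analysis was possible because each group has 1 array. Of the 45 measured members, those with the weakest WT signals, Hspa1a, Ern1 and Ero1l, carry the widest errors, though they were well above background on both arrays.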
